A study of Mus musculus with 18 samples.

Results

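Mitochondrial ribosomal protein genes were followed in mouse liver through the 6 groups of an RNA-Seq study of asparaginase. The members were every gene of the expression table whose symbol starts with Mrpl (mitochondrial large ribosomal subunit) or Mrps (mitochondrial small ribosomal subunit) followed by a number. Of 80 such names, 4 pseudogenes were left out, and the other 76 genes, 47 Mrpl and 29 Mrps, had a valid estimate in every group. They are 76 of 37303 genes in the table. The study compared WT mice with mice that lacked both copies of Gcn2 (Gcn2-/-) or both copies of Atf4 (Atf4-/-), all 3 strains on a C57BL/6J background. Each strain received 8 daily intraperitoneal injections of asparaginase (ASNase, 3 IU per gram body weight), an enzyme drug that breaks down circulating asparagine and glutamine, or of phosphate buffered saline (PBS), and livers were taken 7.5 h after the last dose. There were 3 mice per group and 18 in all, of both sexes, and the labels give ages of 8 to 16 weeks. The mice in each group of 3 included 1 male in WT PBS, Gcn2-/- PBS and Gcn2-/- ASNase and 2 males in WT ASNase, Atf4-/- PBS and Atf4-/- ASNase.

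Mitochondria contain their own ribosome, which translates the few respiratory chain proteins encoded by mitochondrial DNA. Its RNA is made inside the organelle, whereas its proteins are encoded by nuclear genes, made on cytosolic ribosomes and imported, so that 2 genomes contribute to the same particle. The small subunit reads the mRNA and the large subunit forms the peptide bonds at the inner membrane. Many of the proteins descend from those of bacterial ribosomes, and others were added in the mitochondrial lineage. GCN2, encoded by Eif2ak4, is the kinase that senses uncharged tRNA when amino acids run short, and ATF4 is the transcription factor whose translation increases when GCN2 is active. In the classification used here, 45 of the 76 members count as conserved in bacteria and 30 as specific to mitochondria. The remaining gene, Mrps36, carries the name of a small subunit protein but is known as a component of the alpha-ketoglutarate dehydrogenase complex. Mrps18a and Mrps30, named for the small subunit, encode proteins that sit in the large subunit. Mrps18a and Mrps18b are classed here as specific to mitochondria, although both are related to bacterial S18.

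Expression is given as FPKM, fragments scaled to transcript length and library size, with 1 value per group that the authors' Cuffdiff run made from 3 libraries together. No spread between mice, n of a value or p-value can therefore be given, and no difference below has a replicate check. The depth of each library cannot be read from FPKM. The error of a value is the interval that Cuffdiff gave it, whose edge lay a median of 45.8% to 48.2% of the value away among the members, depending on the group. Differences are on the log2(FPKM + 0.1) scale. A gene was called when its difference exceeded 1.5, FPKM was over 3 in either group and the intervals did not overlap. A smaller limit of 0.5, with no condition on intervals, counted shifted genes. The combined error of a difference joins the interval widths of its values on an approximate log2 scale. All 76 members were above the FPKM limit in every comparison.

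The tissue labels matched the expression of hepatocyte markers. Of 8 listed, the 6 with a valid estimate in every group were used here and below. They summed to between 14371 and 52920 FPKM per group, lowest in Atf4-/- ASNase and next lowest, at 19414, in Gcn2-/- ASNase. Other sources of RNA varied between groups. The 15 skeletal muscle markers summed to 1045 FPKM in WT PBS and 1466 in WT ASNase but to 6.99 and 9.66 in Gcn2-/- livers, 10 and 7 of them being below 0.1 there, and to 83.3 and 181 in Atf4-/- livers. Pancreatic acinar markers, 6 genes, summed to 46.2 FPKM in WT ASNase and 295 in Atf4-/- ASNase and to at most 2.54 elsewhere. Macrophage markers (7 genes) ranged from 176 to 369, and those of neutrophils (6 genes), lymphocytes (7 genes) and proliferating cells (4 genes) reached no more than 16.3. In Gcn2-/- ASNase and Atf4-/- ASNase, 4 and 5 of the lymphocyte markers were below 0.1. In bulk liver, fewer cells of a type cannot be told apart from less RNA per cell. Eif2ak4 was 2.31 and 2.96 FPKM in the Gcn2-/- groups against 3.04 and 2.39 in the WT groups, PBS first. Atf4 was 32.3 and 29.3 in the Atf4-/- groups and between 50.4 and 68.1 in the other 4. A gene's FPKM does not resolve which exons were deleted, so neither value is a check of genotype.

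Summed over its 47 genes, the large subunit had more transcript than the 29 genes of the small subunit in every group. Large subunit FPKM summed to 2112 with PBS and 1851 with ASNase in WT, 2332 and 1990 in Gcn2-/- and 1799 and 1896 in Atf4-/- livers. Small subunit FPKM summed to 1067, 946, 1136, 1081, 912 and 954 in the same order. The ratio of the sums was 1.98, 1.96, 2.05, 1.84, 1.97 and 1.99, with its lowest value in Gcn2-/- ASNase. These subunits follow the gene names. With subunits assigned by structure, 49 large and 26 small subunit genes without Mrps36, the ratio was 2.15, 2.13, 2.21, 1.98, 2.13 and 2.15. For both subunits by name, Gcn2-/- PBS had the highest sum and Atf4-/- PBS the lowest. As a share of the summed FPKM of all genes, the members made up 0.440% and 0.429% in WT and 0.423% and 0.438% in Gcn2-/- livers, PBS first. In Atf4-/- livers the share was 0.407% and 0.352%. By this measure WT PBS was highest and Atf4-/- ASNase lowest, so the order of the groups depends on the measure. The median gene of the small subunit ran from 24.5 FPKM in Gcn2-/- ASNase to 31.6 in Gcn2-/- PBS, and that of the large subunit from 27.6 in Atf4-/- PBS to 36.0 in Gcn2-/- PBS. Per gene, the large over small ratio of the medians was 0.978 and 0.974 in WT and 1.14 and 1.28 in Gcn2-/- livers. In Atf4-/- livers it was 1.096 and 1.04. In every group this ratio was below the ratio of the sums, which also depends on the gene numbers of 47 and 29. Of the 76 members, 37 had their highest value in Gcn2-/- PBS, and 27 and 23 had their lowest in Atf4-/- ASNase and Atf4-/- PBS. No member was lowest in either WT PBS or Gcn2-/- PBS. The share of all genes highest or lowest in each group was not counted, so these counts have no background. Of all genes tested, 60.1% were higher in Gcn2-/- PBS than in WT PBS.

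**Figure D1:**
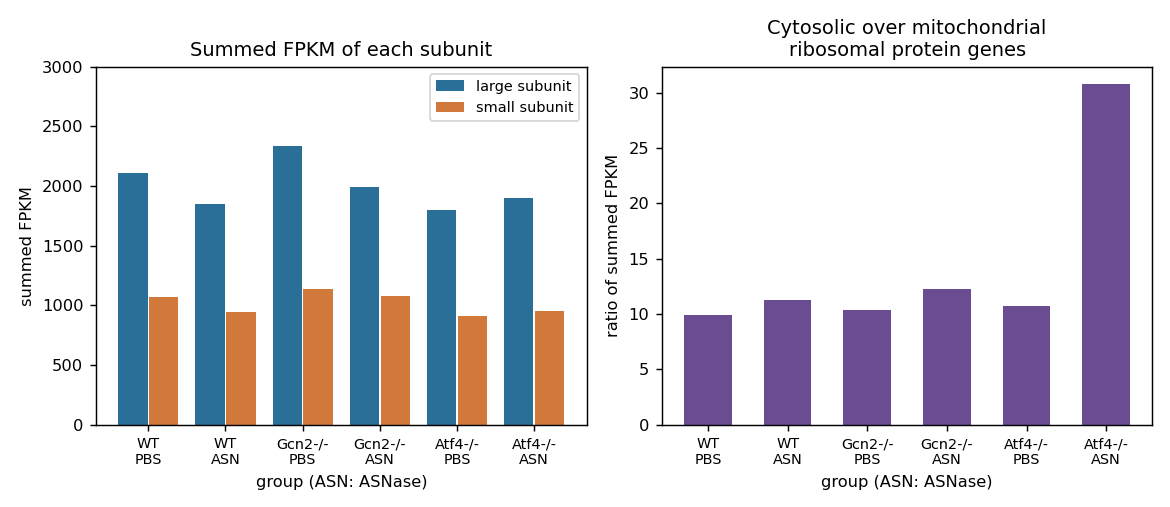
Left, summed FPKM (vertical axis) of the 47 large and 29 small subunit genes in each of the 6 groups. Right, the ratio of summed FPKM of cytosolic over mitochondrial ribosomal protein genes. Bars start at 0 and stand for 1 pooled value each, so they carry no error bar. The sums of the 2 subunits keep a ratio between 1.84 and 2.05, and the cytosolic ratio is 30.8 in Atf4-/- ASNase against 9.86 to 12.3 in the other groups.

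Although the subunit proteins assemble into a particle with nearly equal copy numbers, their transcripts spanned a wide range. Mrpl17, whose bacterial counterpart lies near the exit of the peptide tunnel, had a geometric mean of 140 FPKM over the 6 groups, followed by Mrpl52, specific to mitochondria, at 132, and Mrpl12 at 94.8. MRPL12 corresponds to the bacterial stalk protein L7/L12, which binds translation factors and is present in several copies, and it also binds mitochondrial RNA polymerase. The lowest large subunit genes were Mrpl1 at 9.79, Mrpl11, a protein of the stalk base, at 7.77, and Mrpl35 at 5.96. Among the Mrps genes Mrps21 (95.5), Mrps24 (69.4) and Mrps5 (60.1) were highest and Mrps25 (13.1), Mrps36 (11.9) and Mrps6 (10.7) lowest. A member's highest group exceeded its lowest by a median factor of 1.45. Mrpl3, a core protein near the peptidyl transferase centre, varied least, by a factor of 1.17, from 13.7 FPKM in Gcn2-/- ASNase to 16.1 in WT PBS. Mrpl14 varied most, by 3.75, ahead of Mrpl49 (2.78), Mrps18b (2.61), Mrps36 (2.34) and Mrps35 (2.04).

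The genes lie on 17 chromosomes, and 75 of 76 were placed on the mouse genome (GRCm38, the same assembly as mm10) by their Ensembl identifiers in GENCODE M21. Their longest transcripts were 488 to 7300 bases, with a median of 1764. Exons of 31 members overlap an exon of another gene, in 27 cases on the opposite strand. Among those is a head-to-head pair of members: Mrps11 and Mrpl46 share 173 bases on chromosome 7. The library kit is not stated to keep strand, so reads in such stretches cannot be assigned to one of the genes with certainty. Mrpl33, the gene not placed, could not be checked for overlap and is counted below with the members without it.

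Promoters are shown for 7 of the members named below, because NRF1, the ETS factor GABP and YY1 are known regulators of nuclear genes for mitochondria. Each is the 150 bases before the RefSeq start (GRCm38.p6), read 5′ to 3′ on the strand of the gene, with matches to the searched motifs in capitals. They are Mrpl12 at chr11:120484487-120484636 on the plus strand, Mrps21 at chr3:95871515-95871664 on the minus strand, Mrpl9 at chr3:94443186-94443335 on the plus strand and Mrpl17 at chr7:105811088-105811237 on the minus strand. The others are Mrpl52 at chr14:54426759-54426908 on the plus strand, Mrps18b at chr17:35916441-35916590 on the minus strand and Mrpl14 at chr17:45686199-45686348 on the plus strand.
Mrpl12: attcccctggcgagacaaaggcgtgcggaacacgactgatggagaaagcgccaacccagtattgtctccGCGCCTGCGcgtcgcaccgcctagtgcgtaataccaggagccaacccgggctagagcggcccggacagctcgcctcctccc
Mrps21: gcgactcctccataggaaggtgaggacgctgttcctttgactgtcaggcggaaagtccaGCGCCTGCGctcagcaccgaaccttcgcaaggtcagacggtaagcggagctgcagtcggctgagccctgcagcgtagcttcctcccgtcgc
Mrpl9: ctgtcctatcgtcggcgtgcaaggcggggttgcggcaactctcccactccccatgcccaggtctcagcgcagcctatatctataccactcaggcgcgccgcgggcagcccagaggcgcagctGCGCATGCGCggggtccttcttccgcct
Mrpl17: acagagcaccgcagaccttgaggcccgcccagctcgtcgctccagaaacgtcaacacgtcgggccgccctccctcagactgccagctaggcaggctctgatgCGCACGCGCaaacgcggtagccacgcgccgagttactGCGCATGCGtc
Mrpl52: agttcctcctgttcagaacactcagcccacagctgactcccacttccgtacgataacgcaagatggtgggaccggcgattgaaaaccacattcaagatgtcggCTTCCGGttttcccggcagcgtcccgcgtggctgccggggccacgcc
Mrps18b: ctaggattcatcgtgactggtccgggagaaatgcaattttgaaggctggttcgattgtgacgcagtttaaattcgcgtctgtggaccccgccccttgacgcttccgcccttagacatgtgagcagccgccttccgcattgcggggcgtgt
Mrpl14: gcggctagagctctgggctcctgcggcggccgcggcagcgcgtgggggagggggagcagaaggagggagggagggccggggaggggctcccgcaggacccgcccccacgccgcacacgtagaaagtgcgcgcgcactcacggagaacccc
The capitals mark the NRF1 core in Mrpl12, Mrps21, Mrpl9 and Mrpl17 and the ETS core in Mrpl52. In Mrpl9, 2 matches on opposite strands overlap. Mrps18b and Mrpl14 hold their matches outside the 150 bases printed. All 7 thus have an NRF1 or ETS core in their 300 base window. Other members named below, among them Mrpl23 and Mrps17, have none, so the 7 do not stand for the whole set.

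Over the full RefSeq windows of 300 bases, 250 before and 50 after the start, 67 of the 76 members could be matched. The NRF1 core GCGCNTGCG, on either strand, was in 17 of the 67 (25.4%), against 15.9% of 7040 genes expressed in these livers and 6.31% of all 32851 promoters. The ETS core CCGGAAG was in 24 (35.8%), against 21.3% of expressed genes and 8.86% of all promoters. The YY1 core AAGATGGC was in 12 (17.9%), against 5.65% and 2.75%. A C/EBP-ATF composite core of the kind ATF4 binds, TGATGNAA, was in 0 of the 67 windows, and in 2.77% of expressed genes and 3.97% of all promoters. Of 64 cytosolic ribosomal protein genes, 9 (14.1%) held the NRF1, 25 (39.1%) the ETS, 7 (10.9%) the YY1 and 0 the C/EBP-ATF core. Counted per promoter, as for all 32851, the members' shares were 23.3% for NRF1, 32.9% for ETS and 16.4% for YY1. By subunit, 12 of 41 large and 5 of 26 small subunit genes held the NRF1 core, 13 and 11 the ETS core, and 6 and 6 the YY1 core, and a difference between the subunits was not tested. These are matches of letters only, and their absence from a window says nothing of binding elsewhere.

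To see how asparaginase acted with the stress response intact, WT ASNase was compared with WT PBS. Nearly all mitochondrial ribosomal protein genes were slightly lower: 71 of 76, or 44 of 47 large and 27 of 29 small subunit genes. The median difference was −0.19, a level 12.1% below PBS, at −0.19 for the large and −0.18 for the small subunit, while the median of all 9084 genes tested was −0.01. Among all genes 51.0% were lower. The differences were small and close together, from −0.49 to 0.20, with an SD over members of 0.13 against 0.59 over all genes. None of the 76 was called (0.881% of all genes were), and none passed 0.5 in either direction (6.43% of genes were higher and 5.1% lower by that much). The interval of each member overlapped between the groups, so no single gene stood out from its error. Among genes in the same FPKM range as the members 53.1% were lower, and among protein-coding genes with transcripts no longer than those of the members 53.8%.

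The lowest members in WT were Mrps18c, a small subunit protein conserved in bacteria, at 56.8 FPKM under PBS and 40.4 under ASNase (−0.49), Mrpl2, a core large subunit protein, at 114 and 82.2 (−0.47), and Mrps6, at 13.5 and 9.9 (−0.45). Mrpl9 was on the other side, at 30.2 and 34.6 (0.20), with Mrpl15 (0.03) and Mrpl50 (0.01) next to it. Mrpl2 had the widest error of these, since its intervals reached down to 0 in both groups. Conserved members had a median of −0.21 and mitochondria-specific members −0.16. Cytosolic ribosomal protein genes, 85 tested, had a median of −0.01, with 45 lower and 40 higher. This list was made by symbol, mainly Rpl or Rps followed by a number, so it also holds Rpl3l, Rps27l, Rpl7l1 and Rps4y2. WT ASNase held 2 males and WT PBS 1, and the hepatocyte marker sum was 36543 against 47824. Muscle markers summed to 1466 against 1045 FPKM and acinar markers to 46.2 against 1.31. The part of any of these in the lower values was not tested.

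**Figure D2:**
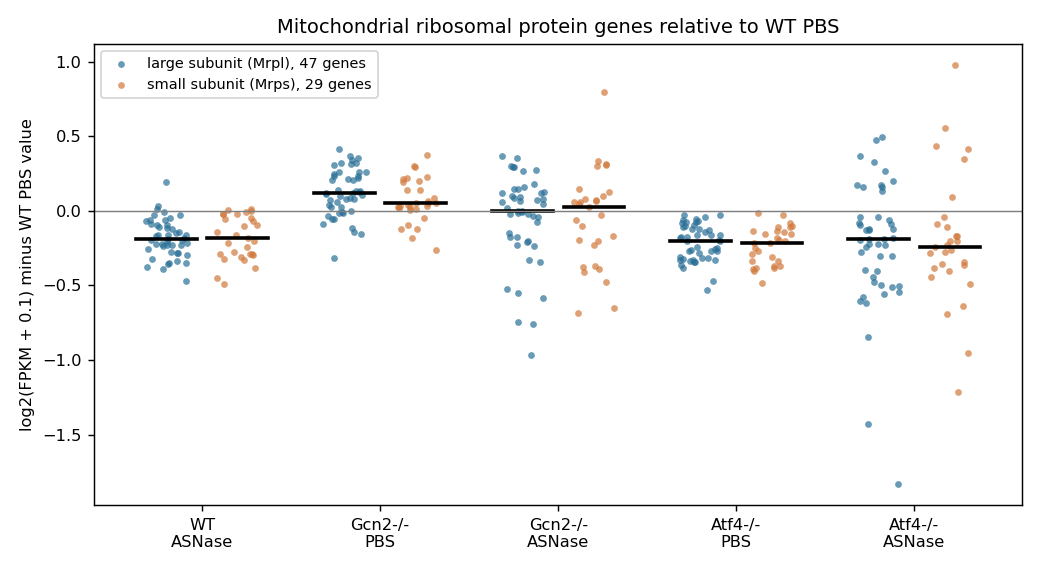
Each point is 1 member, and its height is the difference of its log2(FPKM + 0.1) from the WT PBS value, for the other 5 groups on the horizontal axis; bars are medians of the 47 large and 29 small subunit genes. Both subunits lie narrowly below 0 in WT ASNase and Atf4-/- PBS, a little above 0 in Gcn2-/- PBS, and spread widely in the Gcn2-/- and Atf4-/- ASNase groups.

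The question for the deletion strains was how the response changed without GCN2 or without ATF4. In Gcn2-/- livers ASNase was accompanied by a wider spread of members rather than a larger shared difference. The median was −0.12 for each subunit and for all 76, and 0.02 over the 9218 genes tested. There were 54 lower and 22 higher members, where 48.5% of all genes were lower. The range was −1.04 to 0.89 and the SD 0.32, against 0.85 for all genes. None was called (3.69% of all genes). Past 0.5, 9 members were lower and 1 higher, which is 11.8% and 1.32% of the members, where 19.3% of all genes were lower and 18.3% higher. The hepatocyte marker sum was 52920 in Gcn2-/- PBS and 19414 in Gcn2-/- ASNase, and its part in these differences was not tested.

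Mrpl14 and Mrps35 were about equally far down. Mrpl14 encodes a conserved protein of the large subunit face that meets the small subunit, and its gene is at chr17:45686322-45698495 on the plus strand. It was 92.3 FPKM in Gcn2-/- PBS with an interval of 12.9 to 172, and 45.0 in Gcn2-/- ASNase with an interval of 9.36 to 80.6 (−1.04). In WT it was 87.8 and 68.6. Mrps35, a mitochondria-specific protein of the small subunit, is at chr6:147042764-147073991 on the plus strand, and none of its exons overlaps another gene. It was 44.4 FPKM under PBS (22.3 to 66.5) and 21.8 under ASNase (10.1 to 33.4) in Gcn2-/-, a difference of −1.03 that came within its combined error of 1.05 on the log2 scale. WT livers had 34.3 and 30.7. The Gcn2-/- PBS level of Mrps35 was the highest of its 6 values, so the distance between the 2 Gcn2-/- groups includes a higher start.

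Mrpl48, at 109 and 55.4 FPKM (−0.98), had intervals down to 0 in all groups. The stalk gene Mrpl12 was 135 and 73.4 (−0.88, combined error 0.91), with 106 and 99.4 in WT. Mrpl42, mitochondria-specific and without overlapping exons, was 85.2 and 52.2 (−0.71, combined error 0.86) beside 78.4 and 74.9 in WT. Mrpl23, whose protein lines the exit of the peptide tunnel, was 42.9 and 27.6 (−0.63). Mrpl2, Mrps10 and Mrps6 complete the 9. In the other direction Mrps18b was 41.5 and 77.1 (0.89), followed by Mrpl16 at 28.4 and 37.7 (0.41) and Mrps17 at 56.3 and 68.8 (0.29). Without the 31 members found to overlap other genes, 45 remained, Mrpl33 among them unchecked. Of these, 5 were lower and 0 higher by more than 0.5.

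**Figure D3:**
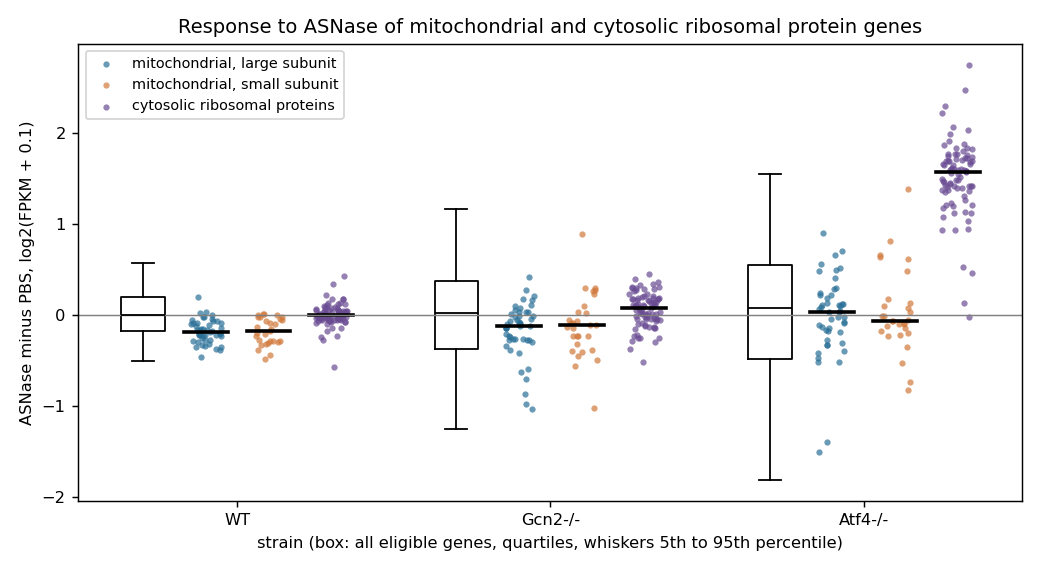
Difference between ASNase and PBS in log2(FPKM + 0.1) (vertical axis) within WT, Gcn2-/- and Atf4-/- livers. Points are single genes of the mitochondrial large subunit, mitochondrial small subunit and cytosolic ribosomal proteins with their medians as bars; boxes are all genes tested, with quartiles and whiskers from the 5th to the 95th percentile. In Atf4-/- the cytosolic genes centre on 1.57 while both mitochondrial subunits centre near 0.

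In Atf4-/- livers the members scattered to both sides of 0. The median was 0.03 for the large and −0.06 for the small subunit and −0.02 for all 76, and 0.08 for the 9485 genes tested. With 40 lower and 36 higher, the split was close to even, and 46.2% of all genes were lower. The range, −1.505 to 1.38, and the SD, 0.45, were the widest of the 5 comparisons, though all genes spread further (SD 1.16). No member was called (7.37% of all genes). Past 0.5, 10 members were higher and 7 lower (13.2% and 9.21% of the members), where 27.0% of all genes were higher and 24.5% lower. Median-ratio scaling, with a factor for each group, moved the large subunit median from 0.03 to −0.03, so its sign depended on the scaling. Hepatocyte markers summed to 38937 in Atf4-/- PBS and 14371 in Atf4-/- ASNase, and their part was not tested.

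Mrps18b reached the highest difference. It is one of 3 mammalian genes related to bacterial S18, at chr17:35910379-35916389 on the minus strand, and its product sits in the small subunit away from the place of bacterial S18. It was 44.4 FPKM under PBS and 44.6 under ASNase in WT, 41.5 and 77.1 in Gcn2-/- and 33.5 and 87.4 in Atf4-/- livers. The last was 2.61 times the Atf4-/- PBS value (1.38), but the intervals, 6.27 to 60.8 and 29.9 to 145, overlapped and the combined error was 1.51. Both ASNase groups without GCN2 or ATF4 stood above the other 4, among which the values stayed between 33.5 and 44.6. An antisense gene, Gm16279, covers 638 of its exon bases (30.5%), and reads of the 2 cannot be told apart without strand. Of its paralogs, Mrps18a was 26.0 FPKM in Atf4-/- PBS and 26.5 in Atf4-/- ASNase (0.03), and Mrps18c 49.0 and 46.8 (−0.07). The 300 base promoter window of Mrps18b held both the NRF1 and the ETS core.

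Mrpl23, at chr7:142532686-142540747 on the plus strand with no overlapping exon, came next. It was 40.5 FPKM under PBS and 37.9 under ASNase in WT, 42.9 and 27.6 in Gcn2-/- and 28.0 and 52.3 in Atf4-/- livers. Its difference within Atf4-/- was 0.90, with a combined error of 0.94, and its ASNase levels in the 2 deletion strains lay on opposite sides of the WT ASNase level. Mrps17, a conserved small subunit protein, was 42.6 and 74.9 (0.81), and Mrpl52, printed above with an ETS core, 113 and 183 (0.70). The 300 base windows of Mrpl23 and Mrps17 held none of the searched cores, and a link of motifs to differences was not tested. Mrps26, Mrpl17, Mrps23, Mrps28, Mrpl54 and Mrpl55 were the other members higher by more than 0.5.

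At the low end, Mrpl14 was 69.9 FPKM in Atf4-/- PBS (7.66 to 132) and 24.6 in Atf4-/- ASNase (2.14 to 47.0). This difference, −1.505, is the only one of a member to reach the limit for a call, and the overlapping intervals kept it from being called, with a combined error of 1.84. The next members inside the limit were Mrpl49 (−1.40) and Mrps18b (1.38). Mrpl49, mitochondria-specific, at chr19:6053622-6057785 on the minus strand, was 15.7 to 19.2 FPKM in the other 5 groups and 6.92 in Atf4-/- ASNase, where its interval ran from 0 to 21.2. Mrps36 was 12.3 and 6.86 (−0.83), Mrps21 96.9 and 58.0 (−0.74) and Mrps35 31.7 and 22.0 (−0.53). Mrpl1 (−0.52) and Mrpl42 (−0.52) complete the 7. An exon of Mrpl14 shares 106 bases with Tmem63b and an exon of Mrpl49 shares 91 with Syvn1, each on the opposite strand. Mrps36, Mrps21 and Mrps35 have no such overlap.

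**Figure D4:**
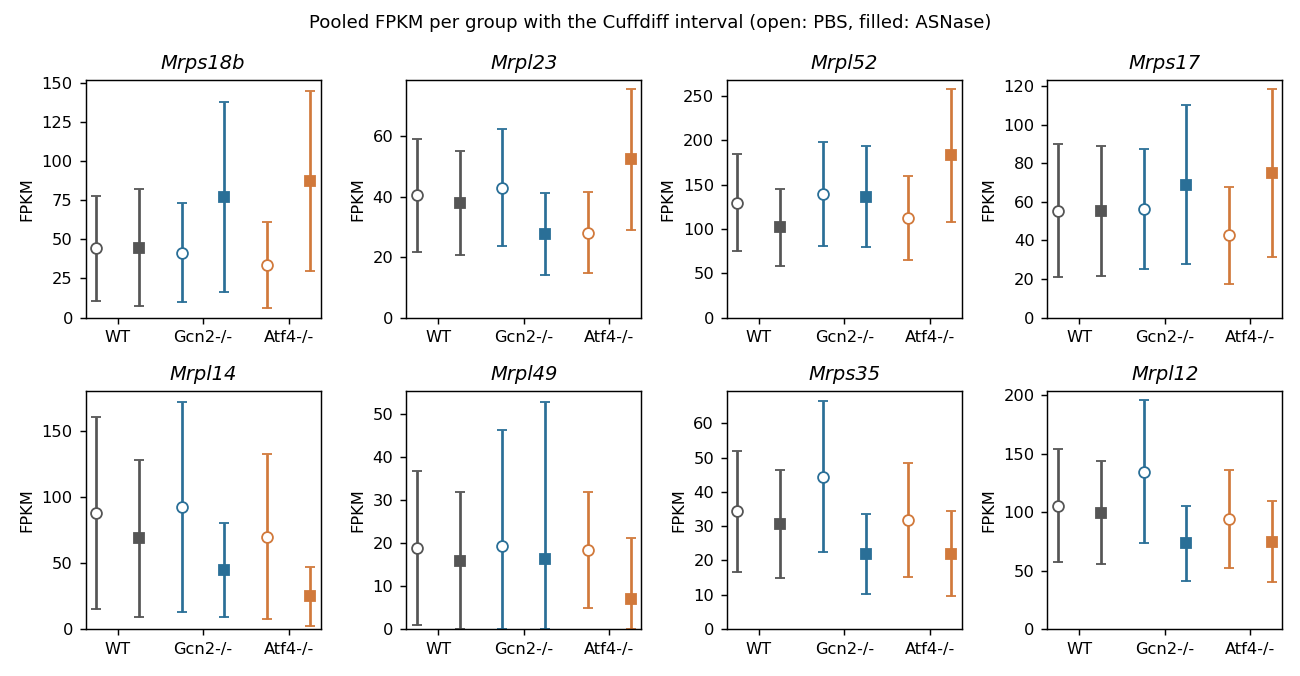
FPKM (vertical axis, from 0) of 8 members in WT, Gcn2-/- and Atf4-/- livers under PBS (open) and ASNase (filled); bars are the Cuffdiff interval of each pooled value. In the top row Atf4-/- ASNase is the highest group, in the bottom row the ASNase groups of the deletion strains lie below their PBS groups, and all intervals of a gene overlap within each strain.

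Members past 0.5 in the 2 deletion strains were set side by side. Of those higher by more than 0.5, 1 in Gcn2-/- and 10 in Atf4-/-, the shared gene was Mrps18b (100% and 10% of the lists, where the shares over all genes were 55.4% and 36.5%). Of those lower, 9 and 7, the shared genes were Mrpl14, Mrpl42 and Mrps35 (33.3% and 42.9%, with 67.3% and 51.4% over all genes). Across the 76 members the differences of Gcn2-/- and Atf4-/- livers correlated with r = 0.50, where r was 0.65 across 8911 genes. WT differences correlated with those of Gcn2-/- at r = 0.13 and of Atf4-/- at r = 0.27 (all genes −0.04 and 0.32). These are descriptions across genes, which are not replicates and whose values come from the same libraries and scaling.

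A difference in response between strains was counted when it exceeded 1 and its combined error. Gcn2-/- against WT gave 0 of 76 members, with 5.48% of all genes counted, and Atf4-/- against WT also 0, with 8.92%. In the latter, 4 members passed 1 without passing their error, namely Mrps18b (1.37), Mrpl52 (1.05), Mrpl14 (−1.15) and Mrpl49 (−1.14). Atf4-/- against Gcn2-/- gave 1 member, Mrpl23, with a difference of 1.53 and an error of 1.34, and 5.07% of all genes. That is 1 of 76 and below the share of all genes. Mrpl23 was lower in Atf4-/- PBS than in Gcn2-/- PBS, so its difference in response includes a lower start.

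Cytosolic ribosomal protein genes took a different course in Atf4-/- livers. Their summed FPKM was 31355 with PBS and 31419 with ASNase in WT, 35984 and 37628 in Gcn2-/- and 28979 and 87782 in Atf4-/- livers. Relative to the mitochondrial sum this was 9.86, 11.2, 10.4, 12.3, 10.7 and 30.8. Within Atf4-/-, 83 of 84 were higher and 30 were called, where 53.8% of all genes were higher and 7.37% called. The cytosolic median was 1.57 against −0.02 for the mitochondrial genes. In Gcn2-/- livers the 2 medians were 0.07 and −0.12. Cytosolic ribosomal protein genes have many processed pseudogenes, which can take or lend reads, so their single values are less certain. The hepatocyte and acinar sums given above also moved in Atf4-/- ASNase, and their part in this was not tested.

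**Figure D5:**
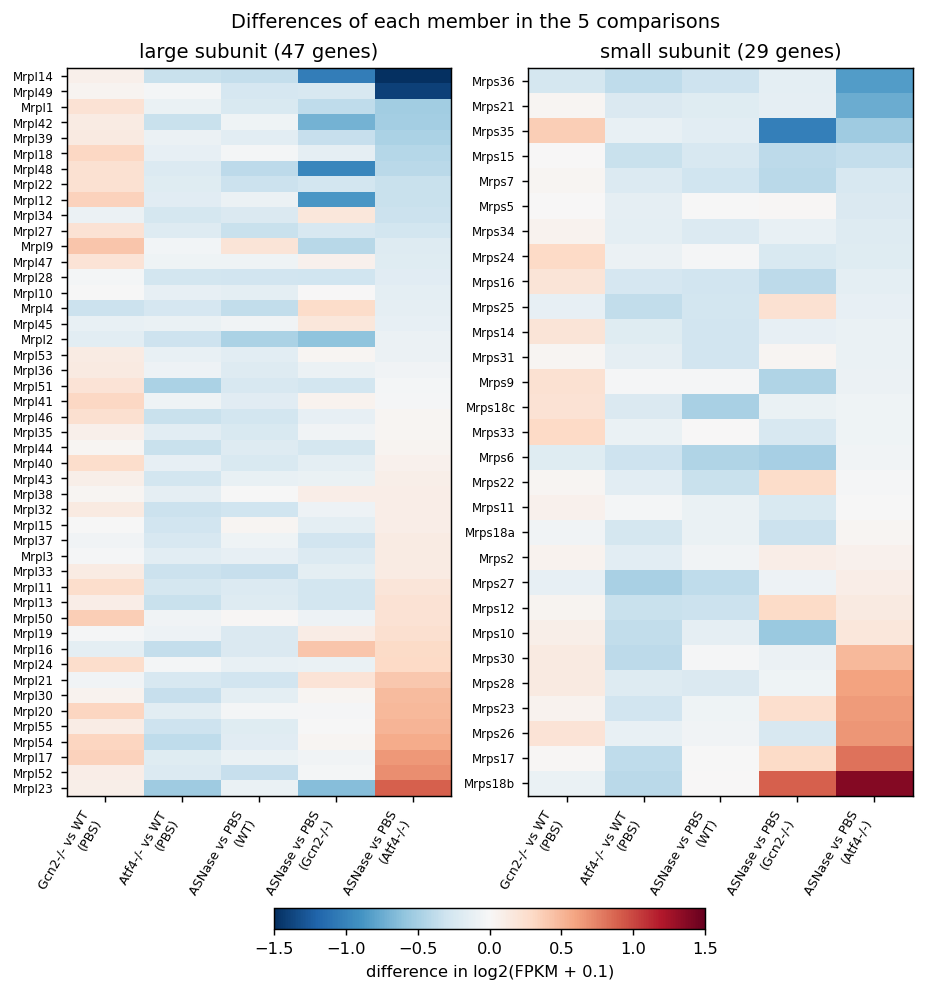
Differences in log2(FPKM + 0.1) of the 47 large (left) and 29 small (right) subunit genes, 1 row each, in the 5 comparisons; blue is lower and red higher in the group named first, and rows are sorted by the Atf4-/- ASNase difference. The columns for Atf4-/- against WT under PBS and for WT ASNase are blue nearly throughout, and strong colours of both kinds appear in the ASNase columns of the deletion strains.

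The basal comparisons ask what each deletion did under PBS. Both use WT PBS, as the WT response does, so any error of the WT PBS values enters all 3, and their values are given side by side without counting agreement. In Atf4-/- PBS all 76 members were lower than in WT PBS, where 49.6% of the 9039 genes tested were lower. The median was −0.20, or 13.2% below WT, at −0.20 for the large and −0.21 for the small subunit and for both evolutionary classes at −0.20, and the median of all genes was 0.00. The SD over members was 0.12 and the range −0.53 to −0.02. No member was called (1.12% of all genes), and 1 was lower and 0 higher by more than 0.5 (6.03% and 5.96% of all genes). Each interval overlapped its WT counterpart. Restricting the background to genes in the members' FPKM range gave 51.6% lower, and adding the limit on transcript length 53.2%.

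The member past 0.5 was Mrpl23, at 40.5 FPKM in WT PBS and 28.0 in Atf4-/- PBS (−0.53). Mrps27, which unlike most subunits contains RNA-binding PPR motifs, was 16.0 and 11.4 (−0.48), and Mrpl51 79.8 and 57.6 (−0.47). Nearest to 0 were Mrps9 (−0.02), Mrpl49 (−0.03) and Mrpl24 (−0.03). Of the members named for their known role in human mitochondrial disease, Mrpl44 was 16.6 and 13.1 (−0.34), Mrps16 61.9 and 52.0 (−0.25), Mrps22 19.9 and 17.8 (−0.16) and Mrpl3 16.1 and 14.3 (−0.16). Mrps12, a protein of the decoding site, was 54.3 and 43.1 (−0.33), and the stalk base gene Mrpl10 30.2 and 27.6 (−0.13). Mrpl11 was 8.06 and 6.68 (−0.27) and Mrps30 15.9 and 12.2 (−0.39). Cytosolic ribosomal protein genes were lower in 68 of 85, with a median of −0.12. Of these, 1 was called, Rpl3l (−2.82), where 1.12% of all genes were called. Atf4-/- PBS held 2 males and WT PBS 1, and muscle markers summed to 83.3 against 1045 FPKM. The sex of the mice and the deletion cannot be told apart in pooled values.

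Gcn2-/- PBS, by contrast, was near or above WT PBS. The median was 0.08, at 0.12 for the large and 0.05 for the small subunit, with 0.06 over all 8920 genes tested. Of the 76, 58 were higher and 18 lower, where 39.9% of all genes were lower. With median-ratio scaling of the groups the split became 43 higher and 33 lower and the small subunit median −0.01, so the split depended on the scaling. No member was called (1.04% of all genes) and 0 passed 0.5 in either direction (6.07% of genes were higher and 6.63% lower by that much). Mrpl9, whose promoter above holds overlapping NRF1 cores, was 30.2 FPKM in WT PBS and 40.3 in Gcn2-/- PBS (0.41). Mrps35 was 34.3 and 44.4 (0.37) and Mrpl50 25.7 and 33.2 (0.37). The 300 base window of Mrpl50 held none of the searched cores. Mrpl4 was 21.7 and 17.4 (−0.32), Mrps36 16.1 and 13.4 (−0.26) and Mrps6 13.5 and 11.9 (−0.18). Each group held 1 male. Muscle markers summed to 6.99 in Gcn2-/- PBS against 1045 FPKM in WT PBS, and their part in these differences was not tested.

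Subunits known under other names gave a comparison that the choice by name did not touch. They were 7 genes, Dap3 and Ptcd3 of the small subunit, Chchd1 and Aurkaip1, also small subunit proteins, and Gadd45gip1, Ict1 and Mrp63 of the large subunit. All 7 were lower in Atf4-/- PBS than in WT PBS, with a median of −0.22, and all 7 were lower in WT ASNase, with a median of −0.17. Dap3, a GTP-binding protein, was 44.4 FPKM under PBS and 36.0 under ASNase in WT, 45.4 and 44.1 in Gcn2-/- and 37.3 and 43.8 in Atf4-/- livers. Their medians in the other comparisons were −0.09 for Gcn2-/- ASNase, 0.14 for Atf4-/- ASNase and 0.08 for Gcn2-/- PBS. None of the 7 was called in any comparison. They share the WT PBS group and the processing with the members.

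Translation factors work with the mitochondrial ribosome at each step of protein synthesis. Of 12 translation factors, 11 were lower in WT ASNase (median −0.05), 9 in Gcn2-/- ASNase (−0.15), 10 in Atf4-/- ASNase (−0.21) and 11 in Atf4-/- PBS (−0.20), and 5 in Gcn2-/- PBS, where the median was 0.16. None was called. The elongation factor gene Gfm1 was 57.9 FPKM under PBS and 49.2 under ASNase in WT, 51.0 and 29.6 in Gcn2-/- and 48.6 and 28.2 in Atf4-/- livers. Its difference was −0.78 in each deletion strain and −0.23 in WT. Tufm, the factor that brings aminoacyl-tRNA to the ribosome, was 41.1, 38.4, 37.9, 32.5, 30.6 and 25.9 FPKM in the same order.

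Among 15 assembly and rRNA processing genes the medians were 0.06 in WT ASNase, 0.02 in Gcn2-/- ASNase, 0.15 in Atf4-/- ASNase, 0.10 in Gcn2-/- PBS and −0.05 in Atf4-/- PBS. The 1 called gene was Ddx28, an RNA helicase of large subunit assembly. It was 6.62 FPKM under PBS and 7.27 under ASNase in WT, 8.91 and 21.3 in Gcn2-/- and 7.49 and 57.2 in Atf4-/- livers. Its difference was 2.92 within Atf4-/-, where it was called, and 1.25 within Gcn2-/-, where it was not. Both ASNase groups without GCN2 or ATF4 were above the other 4, which lay between 6.62 and 8.91. The 4 mitochondrial transcription genes had medians of 0.10, −0.36, 0.05, 0.17 and −0.02 in that order of comparisons, and Tfam, which packages mitochondrial DNA, was 58.9 FPKM in Gcn2-/- PBS and 36.7 in Gcn2-/- ASNase (−0.68).

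Regulators of nuclear genes for mitochondria were higher in WT ASNase in all 6 tested, where 49.0% of all genes were higher. Their median was 0.47, while the ribosomal protein genes were lower. Gabpa, the ETS subunit of GABP, was 13.7 FPKM in WT PBS and 22.5 in WT ASNase (0.71), with intervals of 0 to 47.0 and 0 to 71.5, and Yy1 15.2 and 20.0 (0.39). The intervals of Esrra and Pprc1 also reached 0 in both WT groups, and none of the 6 was called there. Their medians were 0.03 in Gcn2-/- ASNase, 0.44 in Atf4-/- ASNase (7 tested), 0.13 in Gcn2-/- PBS and 0.26 in Atf4-/- PBS. The list also holds Ppargc1a and Ppargc1b, which were below 3 FPKM in every group and so enter no median. With ASNase, Ppargc1a differed by 0.33 in WT, 0.25 in Gcn2-/- and −1.35 in Atf4-/- livers. The values of Ppargc1b were 0.75, −1.47 and −1.22. Myc was the called gene, at 1.75 FPKM in Atf4-/- PBS and 13.8 in Atf4-/- ASNase (2.91), with 1.38 to 2.71 in the other 4 groups. Esrra was 18.2 and 7.15 (−1.34) in those groups and was not called.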

How the data were processed

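RNA-Seq of 18 livers was analysed. The authors made poly-A TruSeq libraries, sequenced 100 bp single-end reads, aligned them to mm10 with TopHat and Bowtie, and assembled, merged and quantified transcripts with Cufflinks, Cuffmerge and Cuffdiff. What the authors deposited is an FPKM value per group, made from its 3 libraries jointly, plus interval bounds in FPKM and a status. No column was left out of the map to groups (0 value columns outside it). The planned limma fit needs single libraries and was not run.

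Groups were compared on log2(FPKM + 0.1). A gene was tested when its status was OK and FPKM above 0 in both groups and over 3 in either, called at a difference over 1.5 with separate intervals, and counted as shifted over 0.5. The combined error is the root of the summed squares of each interval's width over 2, divided by its FPKM and by ln 2, which approximates the log2 scale and is too small where a lower bound stops at 0. Genes named were those with the 3 highest and 3 lowest differences per comparison and levels per subunit, the Mrps18 paralogs, 10 members chosen for their role, members counted in a response difference, and those next to the call limit. Others named complete a count or belong to a related list, and Mrpl52, Mrpl17, Mrps21 and the other promoters were picked after their values were seen. Members and lists were chosen with earlier results of these data known. Alternatives were pseudocounts of 1 and 0.01, no FPKM limit or one of 10, median-ratio scaling, the combined error in place of separate intervals, and subunits by structure. Removing members with overlapping exons and restricting the background were added after seeing the data. Scripts used Python 3.11.15, numpy 2.4.6, pandas 2.3.3, scipy 1.17.1 and matplotlib 3.10.9 and were tested on simulated data.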

Additional observations from a re-analysis of the deposited data

Results flagged for a closer look

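The response of Mrpl23 differed between Atf4-/- and Gcn2-/- livers by more than the combined error of the 4 values: its ASNase difference was 0.90 in Atf4-/- and −0.63 in Gcn2-/-, 1.53 apart on the log2 scale with an error of 1.34. It was the 1 member of 76 counted, while 5.07% of all genes were. The PBS level of Mrpl23 was 28.0 FPKM in Atf4-/- and 42.9 in Gcn2-/- livers, so the 1.53 includes a lower start in Atf4-/-. The comparison rests on pooled values without a replicate check.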

How the results depend on the processing

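Of 195 values recomputed under alternatives, 187 stayed within 1.5 times the count or 0.1 of the median, 8 moved and 0 turned direction by more than 0.1. With median-ratio scaling, 33 members were lower in Gcn2-/- PBS than in WT PBS, in place of 18. The other 7 come from leaving out the 31 members with overlapping exons, by construction a smaller set of 45. Of these 45, the lower members numbered 42 in WT ASNase, 30 in Gcn2-/- ASNase, 21 in Atf4-/- ASNase, 10 in Gcn2-/- PBS and 45 in Atf4-/- PBS, and in Gcn2-/- ASNase 0 were higher and 5 lower by more than 0.5. Under median-ratio scaling 2 medians changed sign by less than 0.1, the large subunit in Atf4-/- ASNase (−0.03) and the small subunit in Gcn2-/- PBS (−0.01).

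No paired analysis was possible because the columns hold 1 pooled value per group, and leaving out single mice could not be done for the same reason. The intervals reach about 46% of a typical value, so the differences of 12.1% and 13.2% in WT ASNase and Atf4-/- PBS lie inside the error of each single gene. Whether the members' values within a group share an error, as genes of the same libraries can, was not tested.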
